A study of Mus musculus with 16 samples.

Results

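The cells described here are the *Tnmd*+ cells at T9, the last time point of the tenogenic induction, split by whether *Scx* was also detected in the same cell. A cell was taken as *Tnmd*+ when at least 200 genes and at least 1 *Tnmd* UMI (unique molecular identifier, a tag that counts each captured mRNA once) were found in its well. This rule gave 155 cells among 1147 at T9 and 4594 in all single-cell plates. Of these, 53 held no *Scx* UMI and are called *Tnmd*+/*Scx*- below, and 102 held at least 1 and are called *Tnmd*+/*Scx*+. The sign refers to detection and not to the absence of the transcript. The members were thus chosen by their measured *Scx* and *Tnmd* UMIs, so in the single cells these genes are described without a test and were left out of the comparisons of other genes.

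Scleraxis (*Scx*) is a basic helix-loop-helix transcription factor that marks tendon progenitors and tenocytes, and tenomodulin (*Tnmd*) is a type II membrane protein regarded as a late marker of tenocytes. In developing tendon, *Scx* is known to act upstream of *Tnmd* and to be needed for the growth of force-transmitting tendons, and TGF-β signaling induces *Scx*. *Scx* dimerizes with E proteins and binds DNA at E-boxes, which have the letters CANNTG. The comparison below asks how *Tnmd*+ cells in which no *Scx* transcript was caught differ from those in which it was.

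All single cells came from iPSCs made from *ScxGFP* transgenic mice, in which GFP is driven by *Scx* regulatory sequences, so both classes and their comparison cells carry this transgene. Mesodermal cells were treated with TGF-β2 at 10 ng/ml for 9 days (T9) or 6 days (T6), and live nucleated cells were sorted singly, with no gate on GFP stated, into 3 plates of 384 wells for each time point. The 3 T9 plates share all 384 cell barcodes by design, so plates and not barcodes identify a cell. The bulk samples were Achilles tendon of homozygous Scx_KO mice and of their wild-type littermates (Scx_Wt) at 14 days of age, with 2 samples of each. Nothing in the labels says whether the T9 plates came from separate cultures, so the spread between them may be technical.

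The T9 plates held between 3015418 and 3681984 UMIs over all their cells. Total counts of bulk libraries ran from 11188270 to 12398560. T9 plate 3 stood apart from the others. Mitochondrial transcripts took between 8.07% and 9.69% of the UMIs of its cell classes, against 22.4% to 29% in plates 1 and 2. *Malat1*, a nuclear long noncoding RNA, took between 0.587% and 0.79% in plate 3 and between 0.0293% and 0.175% in the others. Every comparison between classes was therefore made within plates.

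In each plate the *Tnmd*+/*Scx*- class was the smaller and the shallower. A cell with fewer UMIs is more likely to lack a *Scx* UMI, so depth is not independent of how the classes were set. Plate 1 held 25 *Tnmd*+/*Scx*- and 49 *Tnmd*+/*Scx*+ cells, plate 2 held 16 and 29, and plate 3 held 12 and 24. The median UMIs per cell were 9446, 7556, and 6796 in *Tnmd*+/*Scx*- cells of plates 1, 2, and 3, and 10210, 7793, and 9012 in *Tnmd*+/*Scx*+ cells. The difference in depth was small in plates 1 and 2 and larger in plate 3. The median number of genes per cell was 2464, 2021, and 2474 without *Scx* and 2577, 2164, and 2790.5 with *Scx*. Summed over the cells, the *Tnmd*+/*Scx*- class had 256630, 151224, and 100955 UMIs, and the *Tnmd*+/*Scx*+ class had 522148, 245986, and 242946, so the values of the *Tnmd*+/*Scx*- class rest on fewer UMIs and carry more counting error.

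The share of *Tnmd*+ cells with *Scx* UMIs was 66.2% in plate 1, 64.4% in plate 2, and 66.7% in plate 3 (65.8% ± 1.17, SD, n = 3). The exact binomial (Clopper-Pearson) 95% intervals ran from 48.8% to 81.4% over the plates. At T6 the shares were 96.9%, 95.9%, and 97.1% (96.6% ± 0.612, SD, n = 3), where 5 of 147 *Tnmd*+ cells had no *Scx* UMI. Thus at T6 nearly every *Tnmd*+ cell also held *Scx*, and at T9 34.2% did not. The share with *Scx* among *Tnmd*-negative cells was also lower at T9, at 41.9%, 29.5%, and 33.6%, than at T6, at 78.9%, 74%, and 76.8%. After thinning every cell to 5000 UMIs before the classes were set, the T9 share was 64.9% ± 6 (SD, n = 3), and after thinning to 3000 UMIs it was 51.1% ± 4.95 (SD, n = 3). At 5000 UMIs, 78 *Tnmd*+ cells with and 42 without *Scx* UMIs were left at T9, against 90 and 3 at T6. At 3000 UMIs there were 53 and 53 at T9, against 72 and 11 at T6.

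The number of *Tnmd* UMIs differed between the classes, with overlap. Of the 53 *Tnmd*+/*Scx*- cells, 36 had exactly 1 *Tnmd* UMI and 17 had 2 or more, with at most 21. Of the 102 *Tnmd*+/*Scx*+ cells, 22 had 1 and 80 had 2 or more, with at most 59. Among T9 cells with exactly 1 *Tnmd* UMI, 17 of 34 in plate 1, 2 of 12 in plate 2, and 3 of 12 in plate 3 held *Scx* (30.6% ± 17.3, SD, n = 3). Among cells with 2 or more *Tnmd* UMIs, 80%, 81.8%, and 87.5% held *Scx* (83.1% ± 3.91, SD, n = 3). These shares use the UMIs that set the classes and are given as a description. At T6, by contrast, 93.2% ± 4.33 (SD, n = 3) of the cells with 1 *Tnmd* UMI held *Scx*.

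**Figure D1:**
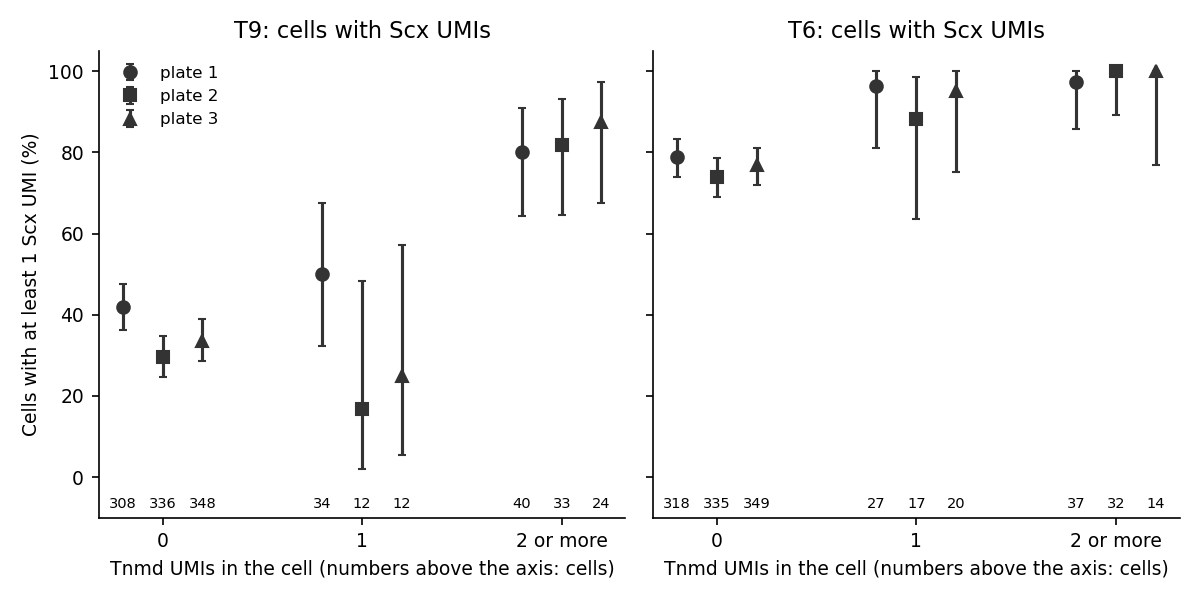
Share of cells with at least 1 *Scx* UMI (y axis, percent) for cells with 0, 1, or 2 or more *Tnmd* UMIs (x axis) at T9 (left) and T6 (right), with a point for each plate, exact binomial 95% intervals that cover counting error only, and the number of cells above the axis. At T9 the cells with 1 *Tnmd* UMI lie between 16.7% and 50%, close to the *Tnmd*-negative cells, and those with 2 or more lie between 80% and 87.5%.

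A UMI can also come from RNA outside the cell, so the shares were set beside those of cells of other lineages. At T9, 31 cells carried markers of other lineages, namely at least 5 UMIs over the pluripotency genes *Tdgf1*, *Utf1*, and *Sox2* or at least 10 over *Srgn* and *Tfpi*. *Tnmd* UMIs were found in 3 of them (9.68%, exact interval 2.04% to 25.8%), against 152 of the 1116 other cells (13.6%, 11.7% to 15.8%), with median depths of 15933 and 7784 UMIs. At least 2 *Tnmd* UMIs were found in 1 of the 31 (3.23%, 0.0816% to 16.7%) and in 96 of the 1116 (8.6%, 7.02% to 10.4%). The intervals overlapped at both limits, and the marker-bearing cells were deeper. *Scx* UMIs were found in 7 of the 31 (22.6%, 9.59% to 41.1%) and in 440 of the 1116 (39.4%, 36.5% to 42.4%). All 3 of these cells with *Tnmd* fell in the *Tnmd*+/*Scx*- class, 1 in plate 1 and 2 in plate 2, and results that change without them are named below.

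As a description of the genes that set the classes, *Tnmd* was at 316, 225, and 277 CPM (UMIs per 1000000 UMIs of the class) in *Tnmd*+/*Scx*- cells of plates 1, 2, and 3 and at 881, 1130.1, and 778 CPM in *Tnmd*+/*Scx*+ cells. *Scx* was at 619, 650, and 671 CPM in the *Tnmd*+/*Scx*+ cells, against 351, 252, and 320 CPM in the 345 T9 cells with *Scx* and without *Tnmd*. Of the *Tnmd*+/*Scx*+ cells, 21 had exactly 1 *Scx* UMI and 81 had 2 or more. The gene *Scx* lies at chromosome 15, 76457452 to 76459458 (GRCm38, + strand), and *Tnmd* at chromosome X, 133850980 to 133865577 (+ strand), and no exon of another gene overlaps theirs in GENCODE M21. Whether transcripts of the *ScxGFP* transgene were counted as *Scx* was not tested.

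To ask which other genes differ with *Scx* detection among *Tnmd*+ cells, the UMIs of each class were summed per plate, and the 6 sums were compared within plates with edgeR's quasi-likelihood test. Of 3626 genes tested, 22 (0.607%) passed a Benjamini-Hochberg adjusted p of 0.05. In *Tnmd*+/*Scx*- cells 15 genes (0.414%) were lower, led by the tendon matrix genes *Thbs4* and *Kera*, and 7 genes (0.193%) were higher, led by *Adh1*, an alcohol dehydrogenase that oxidizes retinol. The genes that were lower without *Scx* thus included secreted matrix proteins, the homeobox factor *Six2*, and the prostaglandin synthase *Ptgs2*. In 20 of the 22 genes the difference had the same sign in all 3 plates. For 17 of the 22 the plate values of the classes did not overlap, as was the case for 10.2% of all genes tested. DESeq2 on the same sums passed 3 of the 22, *Postn*, *Fabp4*, and *Rflnb*, all lower without *Scx*, and no others. The count rests on plate 1, which holds the most cells: without it 0 of 3434 genes passed by edgeR, with 173 at an unadjusted p under 0.05, and 21 of the 22 genes could be tested, all in the same direction. Without plate 2 the count was 38 and without plate 3 it was 47. The median log2 difference over all genes tested was 0.02.

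**Figure D2:**
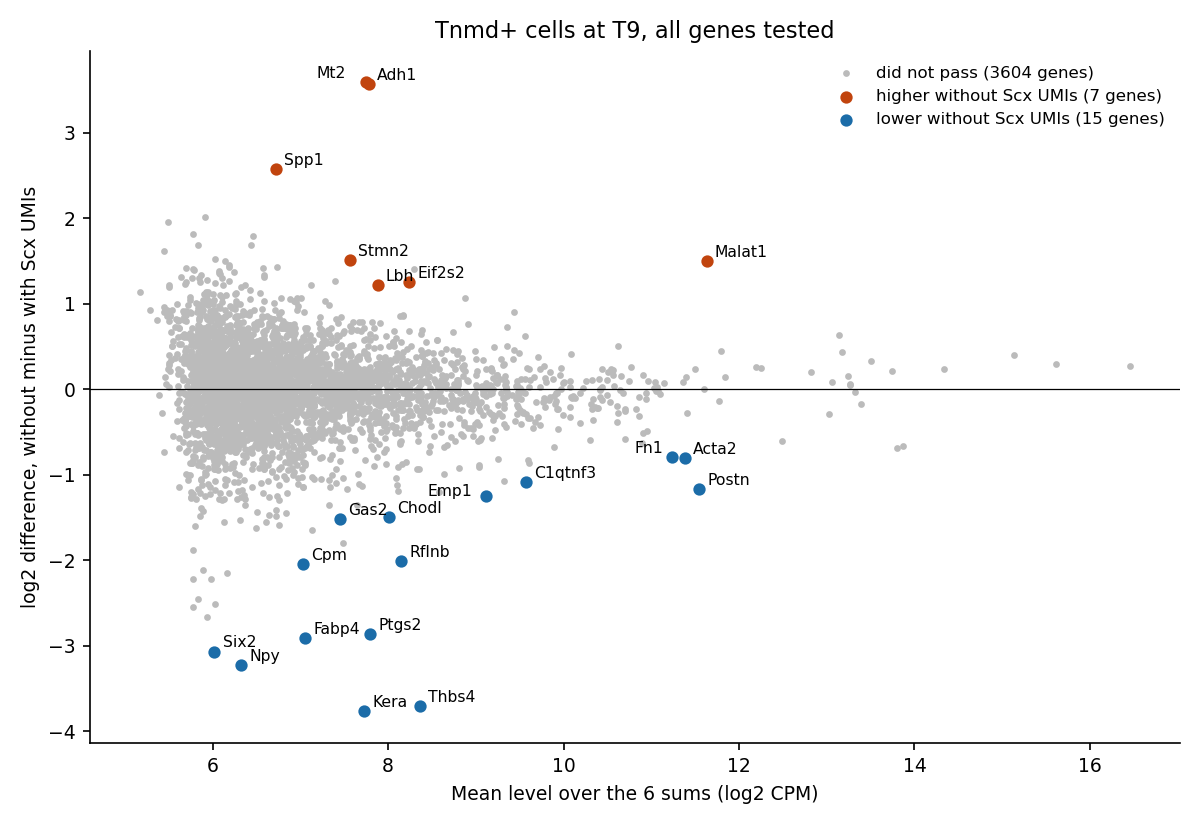
log2 difference between *Tnmd*+/*Scx*- and *Tnmd*+/*Scx*+ cells at T9 (y axis) against the mean level over the 6 sums (x axis, log2 CPM) for the 3626 genes tested, with a grey point for each gene that did not pass and labelled points for those that did. The 15 genes lower without *Scx* UMIs reach a log2 difference of -3.77 (*Kera*), and the 7 that were higher reach 3.59 (*Mt2*).

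The promoters of 4 genes are shown. *Tnmd* set the classes, and the difference of *Thbs4* and *Ptgs2* with *Scx* detection was larger in *Tnmd*+ than in *Tnmd*-negative cells. *Adh1* had the largest difference among the genes higher without *Scx* that kept their sign in every plate. The windows run from 250 bases before to 50 bases after the RefSeq start site on GRCm38.p6. They are read 5′ to 3′ on the strand of the gene, and E-boxes (CANNTG, the same on both strands) are in capitals. The *Tnmd* window (chrX:133850758-133851057, + strand) holds 0 E-boxes, the *Thbs4* window (chr13:92794769-92795068, - strand) holds 2, the *Ptgs2* window (chr1:150099781-150100080, + strand) holds 3, and the *Adh1* window (chr3:138277335-138277634, + strand, inside the GENCODE span of the gene) holds 3.
Tnmd: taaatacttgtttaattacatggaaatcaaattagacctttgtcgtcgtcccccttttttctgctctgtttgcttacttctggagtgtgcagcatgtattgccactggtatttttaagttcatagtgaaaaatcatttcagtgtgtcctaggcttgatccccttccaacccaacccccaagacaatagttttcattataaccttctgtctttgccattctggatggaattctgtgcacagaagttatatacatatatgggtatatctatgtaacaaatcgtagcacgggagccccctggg
Thbs4: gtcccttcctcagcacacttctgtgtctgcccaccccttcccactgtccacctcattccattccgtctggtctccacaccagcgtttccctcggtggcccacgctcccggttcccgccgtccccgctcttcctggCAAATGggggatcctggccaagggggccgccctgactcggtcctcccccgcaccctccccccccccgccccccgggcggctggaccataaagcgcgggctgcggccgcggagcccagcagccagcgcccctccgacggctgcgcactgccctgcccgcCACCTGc
Ptgs2: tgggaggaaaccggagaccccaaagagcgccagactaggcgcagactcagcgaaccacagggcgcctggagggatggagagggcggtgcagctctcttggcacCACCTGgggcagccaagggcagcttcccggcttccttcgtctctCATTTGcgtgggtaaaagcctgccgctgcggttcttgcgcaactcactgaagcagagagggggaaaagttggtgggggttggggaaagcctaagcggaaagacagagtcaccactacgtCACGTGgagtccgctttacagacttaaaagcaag
Adh1: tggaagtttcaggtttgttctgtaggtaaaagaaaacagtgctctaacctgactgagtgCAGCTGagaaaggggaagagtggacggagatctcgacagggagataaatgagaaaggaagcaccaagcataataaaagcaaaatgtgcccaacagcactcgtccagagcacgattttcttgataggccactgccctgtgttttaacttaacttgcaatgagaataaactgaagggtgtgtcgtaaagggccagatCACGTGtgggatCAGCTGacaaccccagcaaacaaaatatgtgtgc
Of the 22 genes, 19 had a promoter in this table. At least 1 E-box lay in the windows of 7 of the 13 such genes lower without *Scx* and of 4 of the 6 higher without *Scx*, and 72.3% of all 32851 promoters hold at least 1. A gene with 2 start sites counted if either window held an E-box, as for *Gas2* and *Emp1*. The 72.3% counts each promoter singly, so the shares are not the same measure. At least 3 E-boxes, as in *Ptgs2* and *Adh1*, lie in 17.6% of all promoters. A match is a match of letters, and binding was not measured here. The paper cites earlier work in which *Scx* activated *Tnmd* through E-boxes in the flanking sequence upstream of the gene. Sequence beyond the windows was not searched here, so the *Tnmd* count holds for its window only.

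Among the genes of tendon matrix, *Thbs4* and *Kera* showed the largest separation. Thrombospondin 4 (*Thbs4*; ENSMUSG00000021702, chromosome 13, 92751590 to 92794818) is a matrix glycoprotein abundant in tendon. Its level was 50.7, 0, and 39.6 CPM in *Tnmd*+/*Scx*- cells and 311, 354, and 882 CPM in *Tnmd*+/*Scx*+ cells of plates 1, 2, and 3. It was detected in 6 of 53 cells without and in 53 of 102 cells with *Scx*. The value without *Scx* rests on 17 UMIs, of which 41.2% came from a single cell. All 3 plates were higher with *Scx*, and the log2 difference was -3.71 ± 0.42 (SE, edgeR adjusted p = 1.71e-04).

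Keratocan (*Kera*; ENSMUSG00000019932, chromosome 10, 97606879 to 97613692) is a small leucine-rich proteoglycan that is also found in tendon. Its level was 11.7, 0, and 69.4 CPM without *Scx* and 270, 354, and 280 CPM with *Scx*. The classes did not overlap, and the log2 difference was -3.77 ± 0.50 (SE, edgeR adjusted p = 5.02e-04). The value without *Scx* rests on 10 UMIs in 5 cells, of which 40% came from a single cell. *Chodl* (chondrolectin), a membrane protein with a C-type lectin domain, was at 85.8, 72.8, and 159 CPM without *Scx* and 182, 310, and 491 CPM with *Scx* (log2 difference -1.50 ± 0.28, SE, edgeR adjusted p = 0.014).

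Periostin (*Postn*; chromosome 3, 54361109 to 54391037), a TGF-β-inducible matricellular protein of collagen-rich tissue, was detected in 47 of 53 and 101 of 102 cells. It was at 1477, 886, and 2626 CPM without *Scx* and 3203, 3160.3, and 4509.6 CPM with *Scx*. Each plate with *Scx* lay above every plate without, and the log2 difference was -1.17 ± 0.20 (SE, edgeR adjusted p = 0.00561). Fibronectin (*Fn1*), which organizes the pericellular matrix, was at 1138, 847, and 2745 CPM without and 2480.0, 1442, and 4415 CPM with *Scx* (log2 difference -0.80 ± 0.18, SE, edgeR adjusted p = 0.0484). Here the classes overlapped across plates but differed in the same direction within each plate. The secreted adipokine *C1qtnf3*, also known as cartducin, was at 460, 265, and 485 CPM without and 901, 965, and 771 CPM with *Scx* (log2 difference -1.09 ± 0.23, SE, edgeR adjusted p = 0.0341).

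The major collagens had smaller differences that did not pass. *Col1a1* was at 8517, 3532, and 20995 CPM without *Scx* and 11364, 8988, and 28752 CPM with *Scx* (log2 difference -0.67 ± 0.19, SE, edgeR adjusted p = 0.163). *Col1a2* had a log2 difference of -0.69 ± 0.18 (SE, edgeR adjusted p = 0.138), and *Col3a1* of -0.17 ± 0.18 (SE, edgeR adjusted p = 0.891). Type I collagen thus had lower values without *Scx* in each plate, and these differences did not pass the test. The minor fibrillar collagen *Col11a1* was at 156, 52.9, and 436 CPM without *Scx* and 322, 326, and 709 CPM with *Scx* (log2 difference -1.20 ± 0.29, SE, edgeR adjusted p = 0.0656). *Col12a1*, a fibril-associated collagen of dense connective tissue, was at 246, 99.2, and 902 CPM without and 666, 387, and 1138 CPM with *Scx* (log2 difference -1.07 ± 0.26, SE, edgeR adjusted p = 0.0656). Asporin (*Aspn*), a small leucine-rich proteoglycan, lay between 277 and 308 CPM without and between 570 and 594 CPM with *Scx* and did not pass either (log2 difference -0.91 ± 0.22, SE, edgeR adjusted p = 0.0652), although its plates did not overlap. Fibromodulin (*Fmod*), a proteoglycan that regulates collagen fibrils, was at 160, 86, and 248 CPM without and 234, 240, and 486 CPM with *Scx* (log2 difference -0.88 ± 0.26, SE, edgeR adjusted p = 0.192).

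In the list of tenocyte matrix and maturation genes, 4 of the 25 genes tested were lower without *Scx* (*Postn*, *Thbs4*, *Chodl*, and *Kera*) and none was higher, with 14 lower and 1 higher at an unadjusted p under 0.05. Over all 3626 genes 0.414% were lower and 0.193% higher, and 323 were at an unadjusted p under 0.05. Negative differences were found in 20 of the 25, and the median was -0.55 on the log2 scale. Of the 6 fibrillar collagen genes tested, all had negative differences with a median of -0.68, and 0 passed by edgeR or DESeq2, with 5 at an unadjusted p under 0.05. Neither was any of the 16 collagen processing genes past the threshold (median -0.28), nor any of the 7 collagen VI and fibril-associated collagen genes (median -0.07), with 2 of each at an unadjusted p under 0.05. *Kera* was the single gene to pass among the 7 small leucine-rich proteoglycans tested (median -0.34), in which *Dcn* had a log2 difference of 0.08 ± 0.20 and *Bgn* of -0.23 ± 0.18 (SE).

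**Figure D3:**
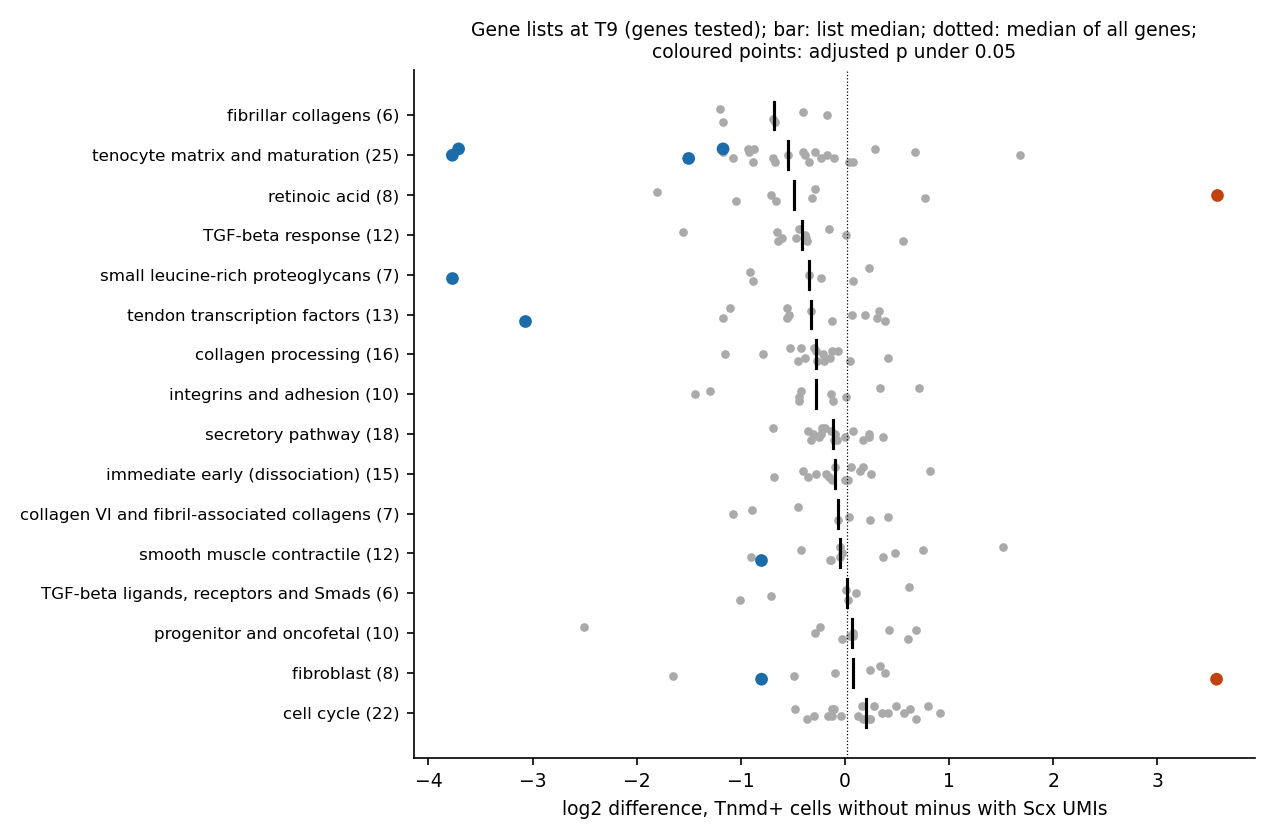
log2 difference between *Tnmd*+/*Scx*- and *Tnmd*+/*Scx*+ cells at T9 (x axis) for the genes of each list with at least 5 genes tested (rows, with the number tested), with a point for each gene, a bar at the list's median, a dotted line at the median of all genes (0.02), and coloured points for genes that passed. The lists with the lowest medians are the fibrillar collagens (-0.68) and the tenocyte matrix genes (-0.55), and the cell cycle list has the highest (0.20).

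Among 13 tendon transcription factors tested, *Six2* passed as lower without *Scx*, against 0.414% of all genes tested, and the median was -0.33. *Six2* (chromosome 17, 85684277 to 85688274) is a homeobox factor expressed in developing tendon. Its level was 3.9, 13.2, and 9.91 CPM without *Scx* and 76.7, 65.2, and 82.4 CPM with *Scx*. These values rest on 4 UMIs in 4 cells against 76 UMIs in 32 cells, and the log2 difference was -3.07 ± 0.67 (SE, edgeR adjusted p = 0.0479). The homeobox factor *Mkx*, which promotes tendon collagen expression, was at 15.6, 19.8, and 39.6 CPM without and 46, 57, and 61.8 CPM with *Scx*, and its log2 difference of -1.17 ± 0.59 did not pass (SE, edgeR adjusted p = 0.611). The inhibitors of helix-loop-helix factors *Id1* and *Id3* had log2 differences of 0.19 ± 0.23 and 0.31 ± 0.25 (SE), and *Tcf4*, an E protein, of -0.33 ± 0.28 (SE), and none of them passed. *Egr1*, a zinc finger factor of tendon differentiation and of the response to mechanical load, was nearly level (log2 difference -0.12 ± 0.19, SE, edgeR adjusted p = 0.941).

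The other genes that were lower without *Scx* encode enzymes, signals, and cell structure proteins. *Ptgs2* (chromosome 1, 150100031 to 150108227), the inducible cyclooxygenase that starts prostaglandin synthesis, was at 39, 6.61, and 69.4 CPM without *Scx* and 165, 448, and 330 CPM with *Scx*. It was found in 7 of 53 and 57 of 102 cells, and the log2 difference was -2.87 ± 0.43 (SE, edgeR adjusted p = 0.00196). Its value without *Scx* rests on 18 UMIs, of which 38.9% came from a single cell. *Rflnb*, a filamin-binding protein also known as refilin B, was at 81.9, 26.5, and 178 CPM without and 284, 293, and 552 CPM with *Scx* (log2 difference -2.01 ± 0.31, SE, edgeR adjusted p = 0.00196). Both genes were lower without *Scx* in every plate with no overlap.

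*Fabp4*, a fatty acid carrier of adipocytes and endothelium, was at 19.5, 39.7, and 0 CPM without *Scx* and 125, 334, and 53.6 CPM with *Scx* (log2 difference -2.91 ± 0.45, SE, edgeR adjusted p = 0.00196). Its value without *Scx* rests on 11 UMIs in 6 cells. Of the 6 adipocyte markers, *Adipoq*, *Plin1*, and *Cidec* were at 0 UMIs in both classes. *Pparg* was at 0 without *Scx* and was detected with *Scx*, and *Fabp4* and *Lpl* were detected in both classes. *Npy*, a neuropeptide, was at 19.5, 0, and 0 CPM without and 72.9, 167, and 57.7 CPM with *Scx*, which rests on 5 UMIs against 93 UMIs in 17 cells (log2 difference -3.23 ± 0.71, SE, edgeR adjusted p = 0.0484). For the membrane carboxypeptidase *Cpm*, the log2 difference was -2.05 ± 0.44, and for *Gas2*, which binds actin and microtubules, -1.52 ± 0.31 (SE, edgeR adjusted p = 0.0408 and 0.0278). *Emp1*, an epithelial membrane protein family member, had a log2 difference of -1.25 ± 0.23 (SE, edgeR adjusted p = 0.011). *Cpm* lay between 13.2 and 59.4 CPM without *Scx* and between 90.1 and 220 CPM with *Scx*, *Gas2* between 52.9 and 99.1 and between 167 and 272 CPM, and *Emp1* between 251 and 287 and between 507 and 782 CPM.

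Of 12 smooth muscle contractile genes tested, 8 had negative and 4 positive differences (median -0.05). Only *Acta2*, the α-actin of smooth muscle and myofibroblasts, passed, as lower without *Scx*, against 0.414% of all genes tested. It was at 1957, 886, and 2209.5 CPM without *Scx* and 2919, 1955, and 4163 CPM with *Scx* (log2 difference -0.81 ± 0.18, SE, edgeR adjusted p = 0.0487). The plate values of the classes overlapped, and the difference within each plate had the same sign. *Tagln*, an actin-binding partner gene of the same program, had a log2 difference of -0.42 ± 0.24 and *Tpm1* of -0.05 ± 0.21 (SE), and neither passed. The 4 with positive differences were *Mylk* (1.52 ± 0.55), *Smtn* (0.75 ± 0.40), *Flna* (0.48 ± 0.35), and *Csrp1* (0.37 ± 0.65, SE), and none of them passed.

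Of the 7 genes that were higher in *Tnmd*+/*Scx*- cells, *Adh1* had the largest difference among those with the same sign in every plate. *Adh1* (ENSMUSG00000074207, chromosome 3, 138260991 to 138290698) was at 366, 165, and 634 CPM without *Scx* and 42.2, 36.7, and 8.24 CPM with *Scx*. It was found in 18 of 53 and 16 of 102 cells. A single cell gave 33.9% of the 183 UMIs without *Scx*, and another gave 45.5% of the 33 UMIs with *Scx*. The classes did not overlap, and the log2 difference was 3.57 ± 0.42 (SE, edgeR adjusted p = 1.71e-04). In T9 cells with neither *Tnmd* nor *Scx* UMIs, *Adh1* was at 169, 168, and 206 CPM. Against these cells *Adh1* did not pass in *Tnmd*+/*Scx*- cells (log2 difference 1.02 ± 0.38, SE, edgeR adjusted p = 0.561). It was lower in *Tnmd*+/*Scx*+ cells (-2.49 ± 0.52, SE, edgeR adjusted p = 0.00415). An antisense gene, *Gm16559*, overlaps exons of *Adh1*, as antisense genes do for *Malat1*, *Gas2*, *Mt2*, and *Fn1*. Whether the counting used the strand was not given in the sources used here. *Malat1*, *Spp1*, and *Ncl* share exons with annotated genes on the same strand, so their counts are uncertain to that extent.

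Retinoic acid genes other than *Adh1* did not pass. Among the 8 tested (median -0.49), *Cyp26a1*, the enzyme that clears retinoic acid, was at 35.1, 19.8, and 149 CPM without and 244, 301, and 86.6 CPM with *Scx* (log2 difference -1.80 ± 0.53, SE, edgeR adjusted p = 0.182). Plate 3 had the opposite direction to plates 1 and 2. The retinoic acid carrier *Crabp2* had a log2 difference of -0.66 ± 0.25 (SE, edgeR adjusted p = 0.375).

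*Malat1* was at 1699, 1713, and 7837 CPM without *Scx* and 566, 293, and 5882 CPM with *Scx* (log2 difference 1.50 ± 0.28, SE, edgeR adjusted p = 0.014). The direction was the same in each plate, while plate 3 was far above the others in both classes. Mitochondrial transcripts moved with the classes, at 26.5%, 29%, and 8.5% of UMIs without *Scx* and 22.4%, 23.5%, and 8.07% with *Scx*, and their part in the results was not tested. The tubulin-binding *Stmn2* was at 261, 218, and 218 CPM without and 99.7, 32.6, and 140 CPM with *Scx* (log2 difference 1.51 ± 0.34, SE, edgeR adjusted p = 0.0484). *Lbh*, a transcriptional cofactor of limb and heart development, lay between 185 and 359 CPM without and between 57 and 165 CPM with *Scx* (log2 difference 1.22 ± 0.27, SE, edgeR adjusted p = 0.0487). *Eif2s2*, the β subunit of translation initiation factor eIF2, lay between 238 and 509 CPM without and between 94.8 and 216 CPM with *Scx* (log2 difference 1.25 ± 0.24, SE, edgeR adjusted p = 0.0163).

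*Mt2* and *Spp1* also passed but did not keep their sign in every plate, and they are named after their values were seen. The metallothionein *Mt2* was at 175, 860, and 0 CPM without *Scx* and 17.3, 44.8, and 12.4 CPM with *Scx*. Osteopontin (*Spp1*) was at 156, 271, and 0 CPM without and 19.2, 65.2, and 0 CPM with *Scx*. Both were at 0 UMIs in *Tnmd*+/*Scx*- cells of plate 3, and a single cell gave 41.1% of the *Mt2* and 48.1% of the *Spp1* UMIs of that class. Without the marker-bearing cells *Mt2* had a log2 difference of 0.87 and did not pass, *Spp1* could not be tested, and 15 of the 21 genes that could be tested passed, among them *Thbs4*, *Kera*, *Ptgs2*, *Postn*, and *Adh1*. *Eif2s2* had a log2 difference of 0.49 then (edgeR adjusted p = 0.797). *Six2* (-2.86), *Stmn2* (1.30), *Fn1* (-0.66), and *Acta2* (-0.61) kept most of their difference and missed the threshold, with edgeR adjusted p from 0.0601 to 0.112.

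Genes closest to the threshold on the higher side, which did not pass, were *Apoe*, *Pnisr*, *Crispld2*, *Enah*, and *Ncl*. The lipid carrier *Apoe* was at 253, 774, and 168 CPM without *Scx* and 138, 143, and 124 CPM with *Scx* (log2 difference 1.41 ± 0.32, SE, edgeR adjusted p = 0.0526). Without the marker-bearing cells, 2 of which lie in the plate with 774 CPM, the log2 difference of *Apoe* was 0.22 (edgeR adjusted p = 0.979). The nucleolar protein gene *Ncl* was at 565, 800, and 733 CPM without and 386, 468, and 449 CPM with *Scx* (log2 difference 0.73 ± 0.20, SE, edgeR adjusted p = 0.138). The log2 difference was 1.27 ± 0.32 for *Pnisr*, 1.22 ± 0.32 for *Crispld2*, and 1.43 ± 0.38 for *Enah* (SE). Without the marker-bearing cells it was 0.43 for *Ncl*, 0.82 for *Pnisr*, 1.37 for *Crispld2*, which then passed (edgeR adjusted p = 0.0479), and 1.23 for *Enah*.

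Markers of other cell types moved with the classes in part. Summed over 9 pluripotency genes, the level was 359, 946, and 0 CPM without *Scx* and 24.9, 20.4, and 0 CPM with *Scx*. In *Tnmd*+/*Scx*- cells 8 of these 9 were detected and *Pou5f1* was at 0, and in *Tnmd*+/*Scx*+ cells 4 were detected. Parietal endoderm genes summed to 690, 2553, and 1258 CPM without and 742, 713, and 1208 CPM with *Scx*, with 14 of 14 and 12 of 14 detected. The level thus stood out in plate 2 of the *Tnmd*+/*Scx*- class, which held 2 of the 3 marker-bearing cells.

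Endothelial genes summed to 46.8, 106, and 178 CPM without and 38.4, 32.6, and 78.3 CPM with *Scx*, with 6 of 10 and 4 of 10 detected. *Cdh5*, *Tie1*, *Emcn*, and *Cldn5* were at 0 in both classes, and *Pecam1* and *Esam* were detected only without *Scx*. Epithelial genes summed to 70.2, 231, and 19.8 CPM without and 9.59, 16.3, and 4.12 CPM with *Scx*, with 7 of 7 and 5 of 7 detected. Neural genes, of which *Stmn2* is a member, summed to 265, 218, and 228 CPM without and 115, 32.6, and 153 CPM with *Scx*. *Tubb3*, *Sox1*, *Dcx*, and *Elavl3* were at 0 in both. *Map2* was detected only without *Scx*, and *Nes* and *Pax6* only with *Scx*. Chondrocyte genes reached at most 16.3 CPM in any sum. *Col2a1*, *Col9a1*, *Matn1*, and *Hapln1* were at 0 in both, and *Acan* was detected only with *Scx*. Skeletal muscle genes stood at 449 CPM in *Tnmd*+/*Scx*+ cells of plate 1 and at most 3.9 CPM in the other sums of *Tnmd*+ cells. Of these 7 genes, 1 was detected without *Scx* and 6 with *Scx*, where *Ckm* was at 0. No *Tnmd*+/*Scx*+ cell was among the marker-bearing cells, so leaving those out did not remove this signal. Smooth muscle genes ranged from 1157 to 2616 CPM without and from 2411 to 4955 CPM with *Scx*, adipocyte genes from 29.7 to 39.7 and from 82.4 to 338 CPM, and blood genes reached at most 19.8 CPM. Whether these cells had a part in the differences was not tested beyond leaving out the marker-bearing cells.

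Other gene groups had no gene past the threshold. These were the TGF-β ligands, receptors, and Smads (6 tested, median 0.02), the TGF-β response genes (12 tested, median -0.41), cell cycle genes (22 tested, median 0.20), progenitor and oncofetal genes (10 tested, median 0.06), immediate early genes induced by dissociation (15 tested, median -0.09), the secretory pathway (18 tested, median -0.12), integrins and adhesion genes (10 tested, median -0.27), and cartilage genes (2 tested, median -0.94). Of 8 fibroblast genes tested (median 0.07), *Fn1* was lower and *Adh1* higher without *Scx*, against 0.414% and 0.193% of all genes tested. All were tested by edgeR, and at an unadjusted p under 0.05 there were 4 TGF-β response genes, 2 integrin and adhesion genes, and 1 each of the progenitor, immediate early, and cartilage genes, all lower without *Scx*. None of these genes passed by DESeq2. Among the TGF-β response genes, *Tgfbi*, an adhesive matrix protein, was at 261, 218, and 297 CPM without *Scx* and 466, 399, and 387 CPM with *Scx* (log2 difference -0.65 ± 0.23, SE, edgeR adjusted p = 0.324). The imprinted genes *Igf2*, *Dlk1*, and *H19*, which are abundant in embryonic tissue, differed by -0.03 ± 0.17, 0.05 ± 0.18, and 0.08 ± 0.17 on the log2 scale (SE). *Fos*, an immediate early gene, had a log2 difference of -0.68 ± 0.20 (SE, edgeR adjusted p = 0.192), and *Top2a*, which is needed in mitosis, of 0.36 ± 0.27 (SE, edgeR adjusted p = 0.819). *Tgfb2*, the ligand that was also added to the medium, was at 7.8, 39.7, and 208 CPM without and 99.7, 85.5, and 181 CPM with *Scx* (log2 difference -1.01 ± 0.49, SE, edgeR adjusted p = 0.567), with a different direction in plate 3.

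To place both classes, each was compared with the 647 T9 cells that held neither gene, in a fit of 12 sums that also held the 345 cells with *Scx* alone. These comparisons share the control cells, so their values are given side by side. *Tnmd*+/*Scx*+ cells differed in 229 of 8309 genes (2.76%), of which 158 (1.9%) were higher and 71 (0.854%) lower. *Tnmd*+/*Scx*- cells differed in 5 (0.0602%), with *C1qtnf3*, *Htra1*, *Fmod*, and *Sox2* higher and *2610528A11Rik* lower. At an unadjusted p under 0.05 there were 1112 and 617 genes, and DESeq2 passed 206 and 9. The sums of the *Tnmd*+/*Scx*- class rest on 508809 UMIs and those of the *Tnmd*+/*Scx*+ class on 1011080.

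Of the tenocyte matrix and maturation genes, 13 of 27 tested were higher and 1 lower in *Tnmd*+/*Scx*+ cells than in cells with neither gene (median 0.43 on the log2 scale, against -0.01 over all genes, of which 1.9% were higher and 0.854% lower), and 1 was higher in *Tnmd*+/*Scx*- cells (median -0.15, against -0.02 over all genes). Of 7 fibrillar collagens tested, 5 were higher in *Tnmd*+/*Scx*+ cells (median 0.65), against the same 1.9% over all genes. The median of these 7 was -0.11 in *Tnmd*+/*Scx*- cells, where none passed by edgeR. Type I collagen, for example, was higher with both genes detected (log2 differences 0.71 ± 0.13 for *Col1a1* and 0.65 ± 0.13 for *Col1a2*, SE, edgeR adjusted p = 0.00101 and 0.00254) and near the level of cells with neither gene in *Tnmd*+/*Scx*- cells (-0.03 ± 0.13 and -0.11 ± 0.13, SE).

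*Kera*, *C1qtnf3*, *Thbs4*, *Postn*, and *Fmod* led the *Tnmd*+/*Scx*+ cells by p. The log2 difference from cells with neither gene was 5.73 ± 0.33 for *Kera* with *Scx* and 1.82 ± 0.72 without (SE, edgeR adjusted p = 1.25e-11 and 0.6). For *Thbs4* it was 3.13 ± 0.22 with *Scx* and -0.63 ± 0.44 without (SE, edgeR adjusted p = 3.82e-10 and 0.799). *C1qtnf3* was higher in both classes, at 2.53 ± 0.16 with *Scx* and 1.34 ± 0.19 without (SE, edgeR adjusted p = 5.08e-11 and 0.00131), from 209, 121, and 144 CPM in cells with neither gene. *Fmod* was likewise higher in both, at 2.19 ± 0.18 and 1.25 ± 0.23 (SE, edgeR adjusted p = 8.26e-09 and 0.0241). The serine protease *Htra1* was at 168, 185, and 188 CPM in *Tnmd*+/*Scx*- cells, at 203, 208, and 235 CPM in *Tnmd*+/*Scx*+ cells, and at 68.5, 51.8, and 82.9 CPM in cells with neither gene. *C1qtnf3*, *Fmod*, and *Htra1* thus passed in both classes. Of the 5 genes that passed for *Tnmd*+/*Scx*- cells, 1 still passed without plate 1, 2 without plate 2, and 4 without plate 3.

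*Sox2* was at 187, 284, and 0 CPM in *Tnmd*+/*Scx*- cells and 65.3, 71.1, and 0 CPM in cells with neither gene, and without the marker-bearing cells, which it helped to choose, it could not be tested. Without those cells 8 genes passed in this comparison, of which 3 (*C1qtnf3*, *Fmod*, and *2610528A11Rik*) were among the 5. Of the 15 genes lower in *Tnmd*+/*Scx*- than in *Tnmd*+/*Scx*+ cells, 10 had a negative and 5 a positive difference from cells with neither gene in the *Tnmd*+/*Scx*- class (median -0.19), and *C1qtnf3* passed. In the *Tnmd*+/*Scx*+ class all 15 were higher than in cells with neither gene (median 2.17), against 1.9% of all genes tested. Of the 7 genes higher in *Tnmd*+/*Scx*- cells, 6 were lower in *Tnmd*+/*Scx*+ cells than in cells with neither gene, against 0.854%. Both counts are in part fixed by how the genes were chosen. None of the 7 passed for *Tnmd*+/*Scx*- cells by edgeR.

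**Figure D4:**
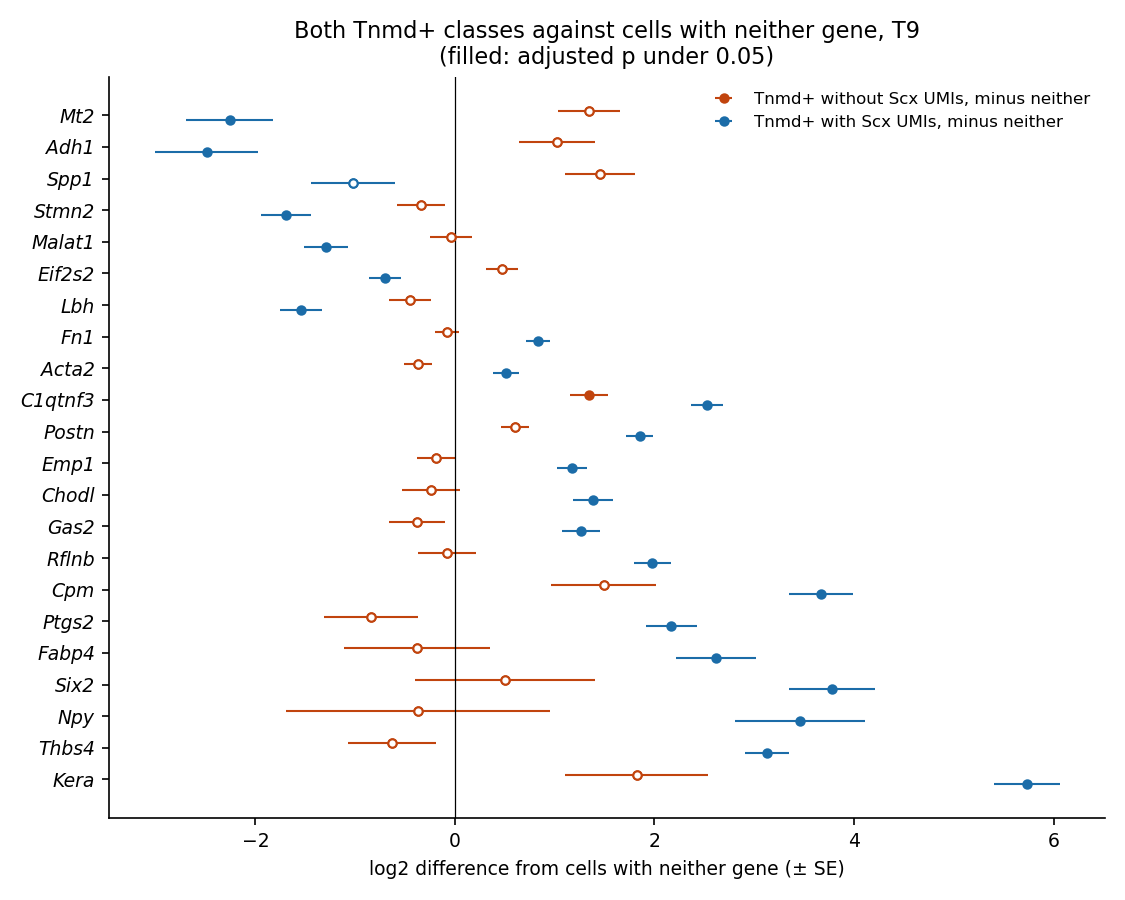
log2 difference (x axis, ± SE) of each of the 22 genes between *Tnmd*+ cells and T9 cells with neither *Tnmd* nor *Scx* UMIs, for *Tnmd*+/*Scx*- cells (orange) and *Tnmd*+/*Scx*+ cells (blue), with filled points for an adjusted p under 0.05. The *Tnmd*+/*Scx*+ cells lie at 5.73 for *Kera* and -2.49 for *Adh1*, and the *Tnmd*+/*Scx*- cells lie nearer 0 for *Thbs4* (-0.63), *Rflnb* (-0.08), and *Malat1* (-0.04).

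The interaction asks whether the difference by *Scx* detection was the same in *Tnmd*+ and *Tnmd*-negative cells. It passed for 6 of 8309 genes (0.0722%), of which *Thbs4* and *Ptgs2* were lower and *Mt2*, *Sox2*, *Utf1*, and *Dppa5a* higher. *Thbs4* was at 84.1, 67.2, and 189 CPM in cells with *Scx* alone and 36.1, 49.2, and 86.5 CPM in cells with neither gene, a smaller gap than among *Tnmd*+ cells (interaction -2.81 ± 0.45 on the log2 scale, SE, edgeR adjusted p = 0.00507). *Ptgs2* was at 53.2, 73.4, and 108 CPM with *Scx* alone and 69.7, 66.4, and 63.2 CPM with neither (interaction -2.83 ± 0.51, SE, edgeR adjusted p = 0.0143). *Ptgs2* was thus raised where both genes were detected. Without plate 2 the interaction passed for no gene by edgeR (596 at an unadjusted p under 0.05), and without the marker-bearing cells it still passed for *Thbs4* and *Ptgs2* but not for *Mt2*. The pluripotency genes *Sox2*, *Utf1*, and *Dppa5a* could not be tested then. *Kera*, by contrast, also differed among *Tnmd*-negative cells, at 44.8, 43.5, and 38.2 CPM with *Scx* and 7.47, 4.71, and 4.77 CPM without. *Kera*, *Fmod*, and *C1qtnf3* were the 3 genes (0.0361%) that passed between the *Tnmd*-negative classes, a comparison added after the data were seen, and the interaction of *Kera* was -1.03 (edgeR adjusted p = 0.828).

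**Figure D5:**
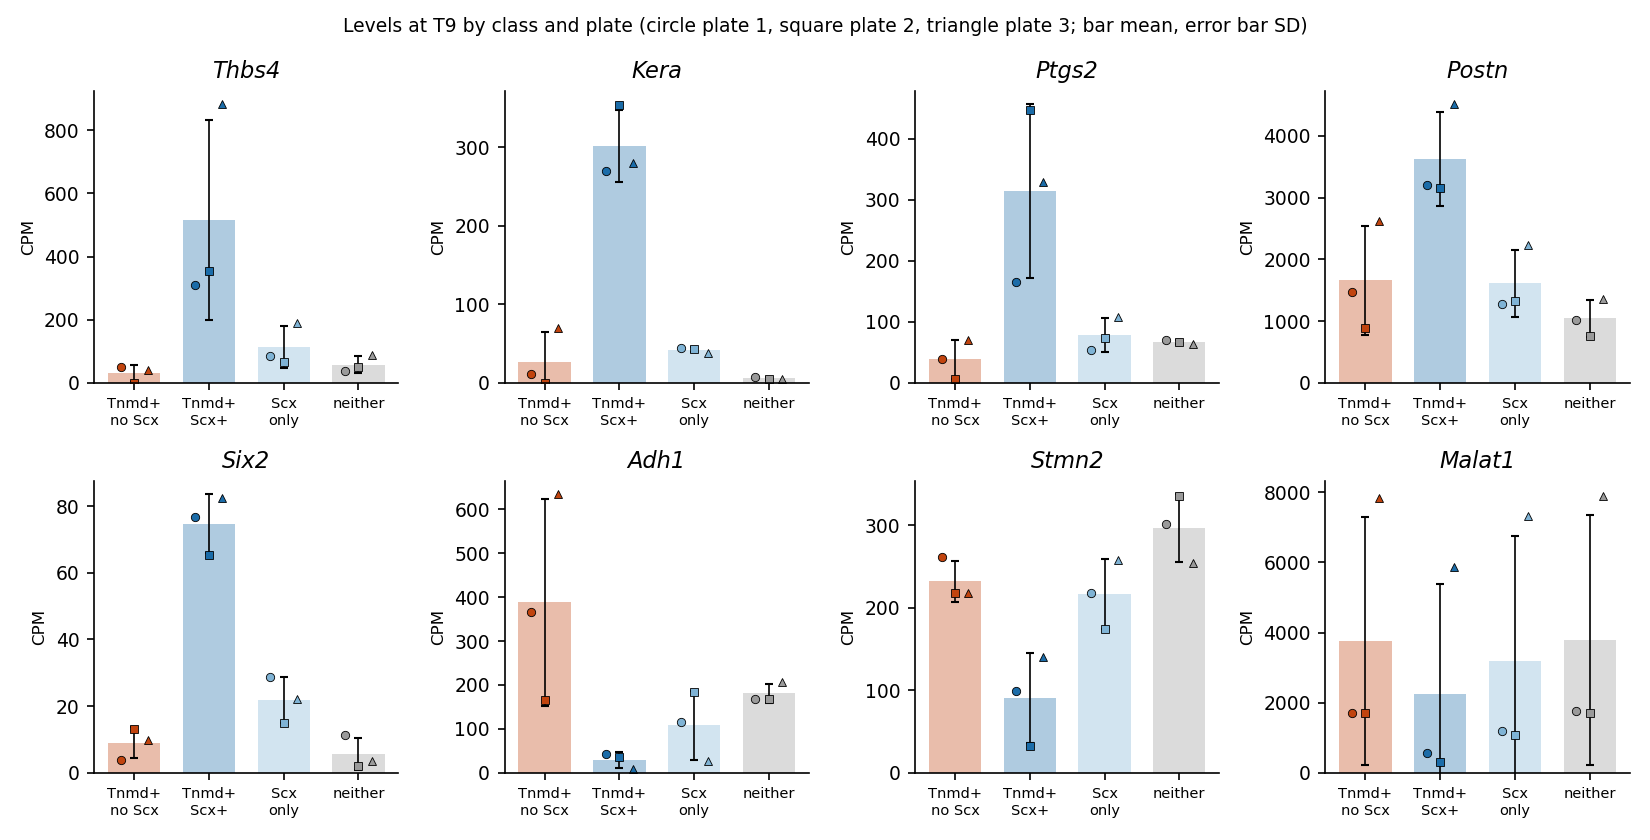
Level (y axis, CPM, from 0) of 8 genes in *Tnmd*+/*Scx*- cells, *Tnmd*+/*Scx*+ cells, cells with *Scx* alone, and cells with neither gene (x axis) at T9, with a point for each plate, a bar at the mean, and an error bar for the SD of 3 plates. *Thbs4*, *Kera*, *Ptgs2*, *Postn*, and *Six2* are highest in *Tnmd*+/*Scx*+ cells, *Adh1* and *Stmn2* are lowest there, and *Malat1* is far higher in plate 3 in every class.

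At T6 the same comparison rested on 5 *Tnmd*+/*Scx*- cells with 42583 UMIs. Of 4020 genes, 6 (0.149%) passed, namely *Postn*, *Tnc*, *Col1a2*, *Col1a1*, *Lgals1*, and *Fstl1*, all lower without *Scx*. The median over all genes tested was -0.65 on the log2 scale, so the differences of this fit were not centred on 0. This shift has the same direction as the 6 genes, and with other size factors 2 genes passed by edgeR. *Postn* was at 0, 156, and 0 CPM in the *Tnmd*+/*Scx*- cells and 971, 1129.9, and 1298 CPM in the *Tnmd*+/*Scx*+ cells. *Thbs4* was at 48.8, 0, and 0 CPM without *Scx* and 193, 100, and 139 CPM with *Scx*. With 2, 2, and 1 *Tnmd*+/*Scx*- cells in the plates these values describe single cells, and without plate 3 no gene passed by edgeR (99 at an unadjusted p under 0.05).

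The bulk tendon samples give the same genes after loss of *Scx* from the animal. *Scx* was at 103 and 81.3 CPM (here counts per 1000000 counts of the sample) in the Scx_Wt and at 23.1 and 25.1 CPM in the Scx_KO samples (log2 difference -1.88 ± 0.17, SE, edgeR adjusted p = 4.29e-04), so counts of the targeted gene remained, and the deleted part of the gene was not given in the sources used here. *Tnmd* was at 1460.1 and 1257 CPM in Scx_Wt and 268 and 264 CPM in Scx_KO tendon (log2 difference -2.30 ± 0.20, SE, edgeR adjusted p = 2.84e-04). Of 14602 genes tested, 258 (1.77%) were higher and 302 (2.07%) lower in Scx_KO. In tissue, fewer cells of a type and less RNA per cell cannot be told apart.

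Of the 15 genes that were lower in *Tnmd*+/*Scx*- cells, 13 could be tested in bulk, and 6 of them were lower in Scx_KO tendon and 1 was higher, against 2.07% and 1.77% of all genes. The median log2 difference was -0.68 against -0.00 over all genes. *Kera* was at 596 and 613 CPM in Scx_Wt and 231 and 223 CPM in Scx_KO samples (log2 difference -1.37 ± 0.17, SE, edgeR adjusted p = 0.00268). *Cpm*, *Gas2*, *Fabp4*, *C1qtnf3*, and *Acta2* were also lower in Scx_KO, with log2 differences of -1.78, -1.80, -1.66, -1.03, and -1.10. *Thbs4* was at 1572 and 1495 CPM in Scx_Wt and 937 and 917 CPM in Scx_KO samples, which did not pass (log2 difference -0.68 ± 0.20, SE, edgeR adjusted p = 0.102).

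*Postn* had the opposite direction in bulk, at 1129 and 665 CPM in Scx_Wt and 2246 and 2976 CPM in Scx_KO tendon (log2 difference 1.60 ± 0.28, SE, edgeR adjusted p = 0.0149). *Six2* had a log2 difference of 0.29 ± 0.49 and *Emp1* of 0.03 ± 0.17 (SE). Of the 7 genes that were higher in *Tnmd*+/*Scx*- cells, *Mt2* was higher in Scx_KO tendon (log2 difference 1.49 ± 0.31, SE, edgeR adjusted p = 0.0313), and the others did not pass. *Adh1* was at 40.1 and 15.4 CPM in Scx_Wt and 12.1 and 7.47 CPM in Scx_KO tendon, a log2 difference of -1.44 ± 0.39 that did not pass (SE, edgeR adjusted p = 0.0871).

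The number of *Tnmd* UMIs also bears on the comparison of the classes. Among the 97 cells with 2 or more, of which 17 held no *Scx* UMI, no gene passed by edgeR, with 120 of 2027 at an unadjusted p under 0.05. In that fit 12 of the 15 genes lower without *Scx* could be tested and all 12 kept their direction (median -1.11), with *Thbs4* at -2.27, *Kera* at -3.21, and *Ptgs2* at -2.53 on the log2 scale. Among the 58 cells with exactly 1 *Tnmd* UMI, 6 of the 15 could be tested and 5 kept their direction (median -0.52), and no gene passed by edgeR (30 of 1244 at an unadjusted p under 0.05). *C1qtnf3* was higher without *Scx* among these, at a log2 difference of 1.27, although that fit rests on 2 cells with *Scx* in plate 2. Of the 7 genes higher without *Scx*, 5 could be tested there and 4 kept their direction (median 0.95), with *Adh1* at 2.73 and *Malat1* at 1.10 on the log2 scale and *Stmn2* turned to -0.06. With 2 or more *Tnmd* UMIs 3 could be tested and all 3 kept their direction (median 1.35).

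Thinning was tried in both orders. When every cell was thinned to 3000 UMIs before the classes were set, cells changed class as well as depth, the classes held 53 cells each, 11 of the 22 genes could be tested, 8 kept their direction, and no gene passed by edgeR (37 of 742 at an unadjusted p under 0.05). *Kera*, *Ptgs2*, and *Chodl* turned, with log2 differences of 1.23, 0.42, and 0.42. When cells were thinned to the same depth after the classes were set, 9 genes passed and the 15 of the 22 genes that could be tested all kept their direction. Among cells with 5000 to 15000 UMIs, which leaves 44 and 92 cells, 8 genes passed and the 19 of the 22 that could be tested kept their direction.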

How the data were processed

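The authors trimmed the single-cell reads (Trim Galore), mapped them with HISAT2 2.2.1 (GRCm38) and, with featureCounts and UMI-tools 1.0.1, made raw UMI counts per gene, which they deposited for 12 plates of 384 wells with 6-base UMIs. Bulk reads were aligned by the authors with HISAT2 2.0.4 and counted with featureCounts 1.5.0, and raw counts were deposited. The annotation release was not given in the sources used here. Of 29632 entries, 29528 matched a gene name, and 3 entries outside Ensembl (0.0642% of UMIs) were left out.

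Cells with at least 200 genes were kept (4594 of 4608 wells), with no doublet caller, since wells were sorted singly. The *Tnmd*+ T9 cells were split by *Scx* UMIs, and UMIs were summed per plate and class without *Scx* and *Tnmd*. The 6 sums were compared with edgeR 4.0.16 (R 4.3.3; filterByExpr, TMM, quasi-likelihood test with plate as a block, Benjamini-Hochberg 0.05). Cells without *Tnmd* entered a fit of 12 sums, and bulk samples were fitted without a block, since their numbers are not stated to mark a pair. Levels are per 1000000 UMIs or counts and are not corrected for length, so they are compared within genes. Plates pair the classes because both were sorted into the same plates, and the deviations of the classes correlated within plates at r = 0.348, 0.424, and 0.6 over 1353 genes. Intervals and limits cover counting error only, and p-values measure the spread between plates, which may be technical.

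Named genes were the 10 with the largest difference in each direction among those that passed with the same sign in all plates, filled up to 10 on the higher side with the genes of smallest p that did not pass, and members of the lists that passed or had the highest levels. All other named genes, such as *Mt2*, *Spp1*, *Emp1*, *C1qtnf3*, *Fmod*, *Mkx*, *Aspn*, and *Htra1*, were named after their values were seen. The members, the gene lists (some of which share genes), and the marker lists were chosen with earlier results of these data known. Alternatives were DESeq2 1.42.0, other scaling, no filter, no block, other class limits, thinning, a depth window, and leaving out each replicate. The comparison of *Tnmd*-negative classes and the settings without marker-bearing cells and with exactly 1 *Tnmd* UMI were added after the data were seen. Scripts were tested on simulated data. Coordinates are from GENCODE M21 and promoters from RefSeq, with Python 3.11.15.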

Additional observations from a re-analysis of the deposited data

Results flagged for a closer look

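For 6 genes the difference between T9 cells without and with *Scx* UMIs depended on *Tnmd* detection, by the interaction in the fit of 12 sums (edgeR adjusted p under 0.05). *Thbs4* had an interaction of -2.81 on the log2 scale (adjusted p = 0.00507) and *Ptgs2* of -2.83 (adjusted p = 0.0143), and both were negative without the marker-bearing cells too, at -2.66 and -2.63 (adjusted p = 0.00227 and 0.00884). *Sox2* had an interaction of 3.97 (adjusted p = 0.00363), *Utf1* of 4.21 (adjusted p = 0.00507), and *Dppa5a* of 8.35 (adjusted p = 0.0143). *Dppa5a* was at 0 in every sum of the *Tnmd*+/*Scx*+ class, so its value depends on the prior count and is no measure of size. In *Tnmd*+/*Scx*- cells *Utf1* was at 81.9, 225, and 0 CPM and *Dppa5a* at 27.3, 205, and 0 CPM, and *Sox2* and *Utf1* are among the genes that chose the marker-bearing cells. *Mt2* had an interaction of 3.06 (adjusted p = 0.0143), which was 0.78 without the marker-bearing cells (adjusted p = 0.948).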

How the results depend on the processing

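The 22 genes between the *Tnmd*+ classes became 3 with DESeq2, 86 without a filter on low counts (16291 tested), 107 with all 4 classes in one fit, 9 when thinned after the classes were set, 8 between 5000 and 15000 UMIs, and 0 with at least 2 *Tnmd* UMIs, with exactly 1 *Tnmd* UMI, or when thinned before the classes were set. Leaving out a plate gave 0 to 47. Without the replicate block 4 genes passed (*Adh1*, *Kera*, *Ptgs2*, and *Thbs4*). With other size factors, at least 2 *Scx* UMIs, or no marker-bearing cells the count stayed within 1.5 times. A minimum of 1000 genes removed none of these cells and so tests nothing. Of the 22 genes, those that could be tested kept their direction in every setting other than 2. *Kera* (1.23), *Ptgs2* (0.42), and *Chodl* (0.42) turned when cells were thinned before the classes were set, and *Stmn2* (-0.06) and *C1qtnf3* (1.27) with exactly 1 *Tnmd* UMI. Thinning before the classes were set also moved cells between classes, and the cause was not tested.

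At T6 the count was 10 with DESeq2, 2 with other size factors, 38 without the block, 1 when thinned, and 0 to 5 with a plate left out. The interaction passed for 39 genes without a filter, 0 without the block, 1 when thinned, 3 without marker-bearing cells, and 0 to 7 with a plate left out. *Tnmd*+/*Scx*- cells differed from cells with neither gene in 9 genes with DESeq2, 58 without a filter, 0 without the block, 2 when thinned, 8 without marker-bearing cells, and 7 to 8 with a plate left out, among which were 1, 2, and 4 of the 5 without plates 1, 2, and 3. *Tnmd*+/*Scx*+ cells differed in 27 without the block and in 111 to 156 with a plate left out. In bulk 1415 genes passed without a filter, 380 to 666 with a sample left out, and 1108 with the replicate block, where the deviations of samples with the same number correlated at 0.124 in 2 pairs. The share of *Tnmd*+ cells with *Scx* UMIs was 51.1% when thinned to 3000 UMIs, 83.1% with at least 2 *Tnmd* UMIs, and 67.1% without marker-bearing cells. The depth of the *Tnmd*+/*Scx*- sums, 100955 UMIs in plate 3, limits what can be told of genes under about 29.7 CPM there, which is 3 UMIs.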
